A study of Homo sapiens with 4 samples.

Results

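The genes described here are 47 genes of DNA repair and damage signaling: those of homologous recombination, the Fanconi anemia pathway and the damage checkpoint, with 6 enzymes of mismatch repair, base excision repair and end joining. They were chosen by name, as the rows of the deposited count table whose symbol is 1 of 47 listed symbols, out of 60617 genes in the table. The rule itself uses no measured value, but the 47 were proposed with earlier results of these data known, so their shares below describe them and are no independent evidence. Each symbol matched 1 row, and all 47 passed the filter on low counts. SCC13 cells, a human line of cutaneous squamous cell carcinoma, had been infected with a lentivirus carrying either an shRNA against CELF2 (CELF2 knockdown, 2 libraries) or a scrambled shRNA (control shRNA, 2 libraries). CELF2 is an RNA-binding protein that takes part in mRNA splicing, decay and translation, and the comparison asks which transcripts differ when it is targeted. All 4 libraries came from the same line and medium, the labels give the genotype of both groups as WT, and polyA RNA was sequenced from TruSeq libraries. The shRNA sequence of each knockdown sample and the number of clones or cultures were not used here. No label says that the 2 samples of a group were cultured apart, so the p-values rest on a spread that may be technical.

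The knockdown libraries held 19928788 and 23177056 counts and the control libraries 27898889 and 17649090 counts. CELF2 itself had 0 counts in both knockdown libraries, against 1 and 0 counts in the controls, so its loss was not detectable at this depth and the target does not check the labels. All 8 keratinocyte markers were well counted, with a summed level of 19593 to 27455 CPM (CPM scales the counts of a library to its size, here with TMM normalization) in the knockdown libraries and 12365 to 20018 CPM in the controls. Fibroblast markers summed to 20.7 to 37.6 CPM in the knockdown libraries and 13.1 to 16.1 CPM in the controls, with COL1A2, COL3A1, DCN and LUM at 0 counts in every library, and immune markers to at most 0.168 CPM, with PTPRC and CD3E among the defining markers at 0. Melanocyte markers summed to 9.02 to 9.04 CPM in the knockdown libraries and 6.11 to 8.82 CPM in the controls, with MLANA, TYR and SOX10 at 0, and endothelial markers to 1.92 to 1.98 CPM in the knockdown libraries and 0.178 to 0.571 CPM in the controls. The part of these cell types in the results was not tested. Over all genes, 133 of 15170 tested genes (0.877%) changed at a Benjamini-Hochberg adjusted p below 0.05 by the quasi-likelihood test of edgeR, 92 higher and 41 lower in the knockdown. Of those calls 69.2% were higher, against 48.8% of 287 calls with an offset for transcript GC content and 55.7% of 1386 calls by DESeq2.

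Homologous recombination repairs a double-strand break by copying the sister chromatid, so it works mainly in S and G2 phase. The ends are sensed by the MRE11-RAD50-NBN complex and resected, BRCA1 and PALB2 bring BRCA2, accessory factors help the broken strand pair with its partner, and the joined molecules are then dissolved or cut. The Fanconi anemia pathway recognizes crosslinks between DNA strands at stalled replication forks: a core complex attaches ubiquitin to the FANCD2-FANCI pair, which recruits nucleases and the recombination proteins. ATM and ATR are the kinases that signal breaks and stalled forks through CHEK2 and CHEK1. Many genes of these pathways are known targets of E2F transcription factors and are transcribed as cells enter S phase, and keratinocytes stop dividing as they leave the basal layer of the epidermis.

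The 47 genes lay lower in the CELF2 knockdown almost throughout, although 1 of them passed the test over all genes. FANCA (ENSG00000187741), the scaffold subunit of the Fanconi core complex, fell 2.71-fold, with 30.9 and 35.6 CPM in the knockdown libraries, against 97.2 and 83.04 CPM in the controls (log2 fold change -1.44 ± 0.18, SE; adjusted p = 0.0483). The share called lower over all tested genes was 0.27%, so 1 of 47 (2.13%) is a single call near a threshold that few genes pass. The log2 fold change was below 0 in 46 of the 47 (97.9%), against 50.3% of all tested genes, it was -1 or less in 17 (36.2%), against 3.8%, and its median was -0.77, against -0.0036 over all tested genes. Both knockdown libraries lay below both controls in 39 of the 47 (82.98%), against 27.9% of all tested genes, and the libraries overlapped in the other 8. An unadjusted p below 0.05 with a lower value in the knockdown was reached by 31 of the 47 (66.0%), against 9.97% of all tested genes. An adjusted p below 0.1 was reached by 15 (31.9%), against 3.52%. No member passed with a higher value, against 0.606% of all tested genes, none had both knockdown libraries above both controls, against 27.1%, and none had an unadjusted p below 0.05 with a higher value, against 12.1%. PMS2 was the single gene above 0. In bulk libraries such as these, fewer cycling cells and less RNA per cell cannot be told apart.

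**Figure D1:**
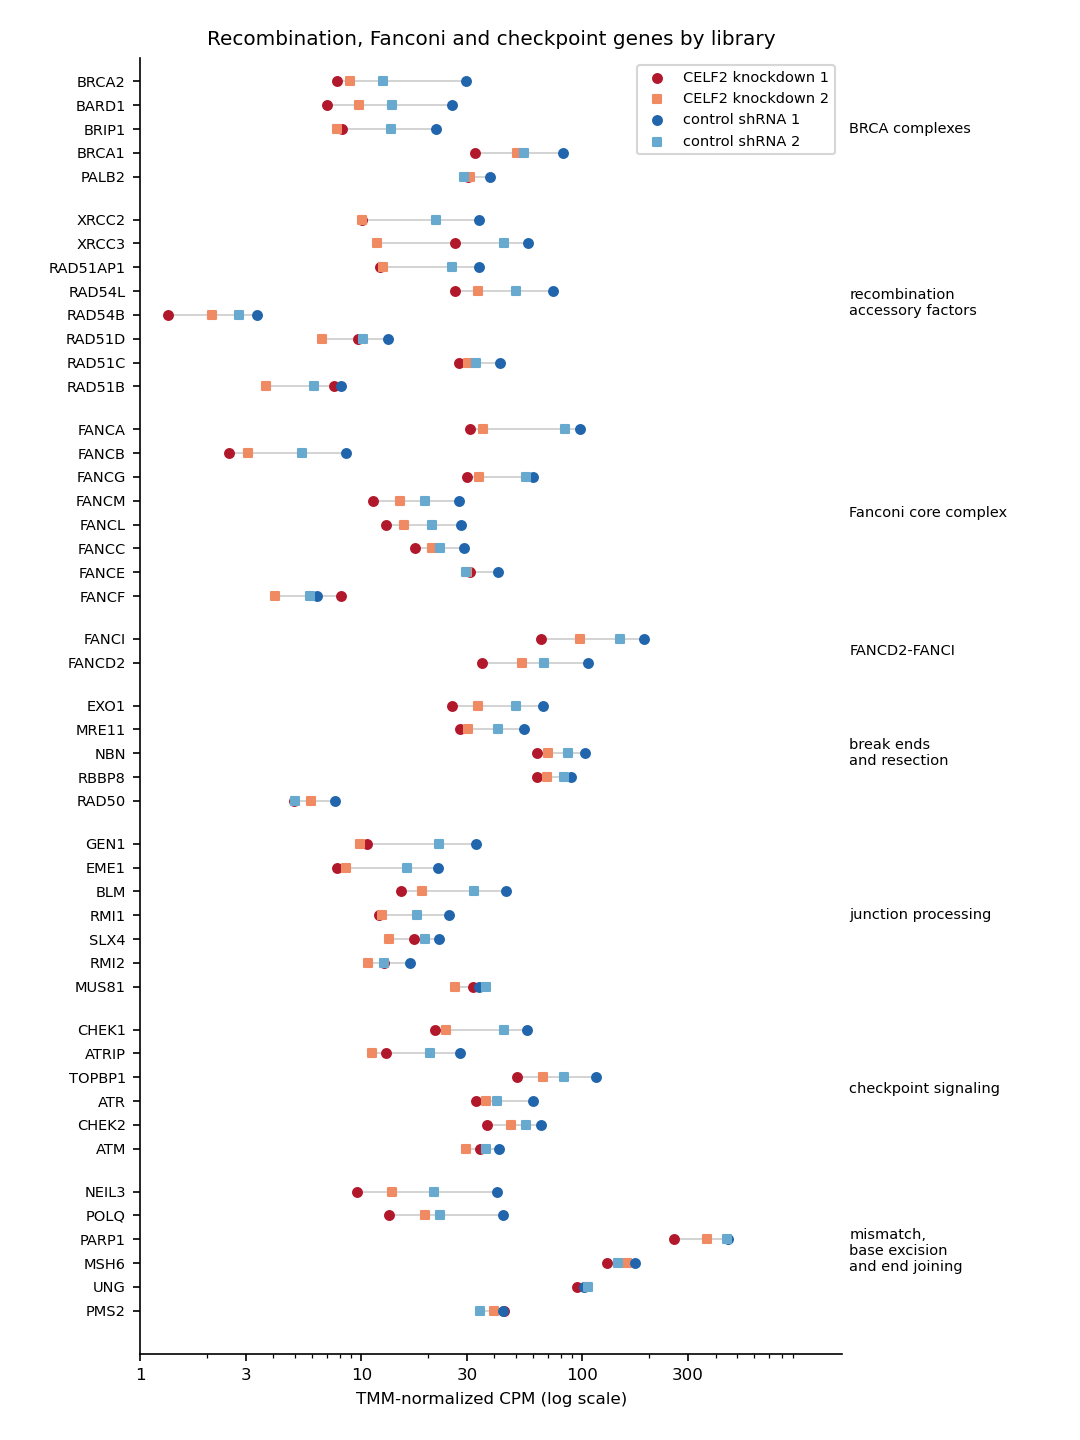
TMM-normalized CPM (log axis) of each of the 47 genes in the 2 CELF2 knockdown libraries (red circle, orange square) and the 2 control shRNA libraries (dark blue circle, light blue square), grouped by role. In 39 genes both knockdown libraries lie left of both controls, and in 43 control replicate 1 holds the highest value.

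The spread between the controls was large for these genes. Control replicate 1 held the highest value of 43 of the 47 genes (91.5%), against 30.9% of all tested genes, and the median log2 ratio of control replicate 1 over control replicate 2 was 0.40 for them, against 0.03 over all tested genes. Summed over the 47, the level was 1482 and 1755 CPM in the knockdown libraries, against 2799.9 and 2257 CPM in the controls, so the groups did not overlap. With control replicate 1 left out, 0 genes passed over all genes (edgeR quasi-likelihood test; 1724 at an unadjusted p below 0.05), 15 members had an unadjusted p below 0.05 with a lower value (background 4.41%), 42 were below 0 (background 48.1%) and the median was -0.54. FANCA had an adjusted p of 0.141 in that fit, 0.0813 without knockdown replicate 2 and 0.0558 by limma-voom, so those 3 fits end its call, while its log2 fold change stayed between -1.55 and -1.33 over the 12 alternatives.

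Promoter windows are shown for the 3 members with the smallest p, FANCA, RAD51AP1 and GEN1, and for PMS2, the gene with the highest log2 fold change, since the first 3 lay lower together and PMS2 did not. Each runs from 250 bases before the RefSeq start to 50 bases after it (build GRCh38.p14, 5′ to 3′ on the strand of the gene). Their positions are chr16:89816598-89816897 (minus strand), chr12:4538640-4538939 (plus strand), chr2:17753619-17753918 (plus strand) and chr7:6009000-6009299 (minus strand). Capitals mark matches, on either strand, to 4 words of the E2F motif, TTTCCCGC, TTTCGCGC, TTTGCCGC and TTTGGCGC, which do not overlap each other in these windows.
FANCA: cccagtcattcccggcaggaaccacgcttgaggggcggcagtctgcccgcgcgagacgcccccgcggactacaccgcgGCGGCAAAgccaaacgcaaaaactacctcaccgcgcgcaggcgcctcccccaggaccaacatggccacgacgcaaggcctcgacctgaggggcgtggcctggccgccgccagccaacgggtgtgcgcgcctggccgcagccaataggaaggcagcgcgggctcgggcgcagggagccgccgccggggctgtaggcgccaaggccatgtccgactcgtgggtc
RAD51AP1: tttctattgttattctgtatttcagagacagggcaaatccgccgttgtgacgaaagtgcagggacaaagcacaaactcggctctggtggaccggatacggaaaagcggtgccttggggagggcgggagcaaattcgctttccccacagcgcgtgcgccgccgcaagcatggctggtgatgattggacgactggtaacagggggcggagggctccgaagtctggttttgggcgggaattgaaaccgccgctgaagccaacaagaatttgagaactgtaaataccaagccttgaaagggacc
GEN1: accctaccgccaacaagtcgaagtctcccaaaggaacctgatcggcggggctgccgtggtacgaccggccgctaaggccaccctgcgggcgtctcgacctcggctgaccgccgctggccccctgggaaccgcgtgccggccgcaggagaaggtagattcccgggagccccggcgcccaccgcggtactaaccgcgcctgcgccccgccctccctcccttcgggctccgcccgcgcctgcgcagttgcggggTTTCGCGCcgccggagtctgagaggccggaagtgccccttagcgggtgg
PMS2: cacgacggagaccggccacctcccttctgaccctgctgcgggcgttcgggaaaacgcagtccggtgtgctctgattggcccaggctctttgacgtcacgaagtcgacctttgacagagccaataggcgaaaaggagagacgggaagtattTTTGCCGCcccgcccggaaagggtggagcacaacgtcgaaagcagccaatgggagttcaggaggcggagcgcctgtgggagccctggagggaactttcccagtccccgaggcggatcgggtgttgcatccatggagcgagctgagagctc
FANCA and PMS2 each held TTTGCCGC before the start, FANCA on the opposite strand, GEN1 held TTTCGCGC after the start, and the RAD51AP1 window held none of the 4 words.

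RefSeq gave a window for 43 of the 47 genes, and none for FANCI, RMI2, NBN and RAD54B. A single window was kept per gene, and some windows lay far from the gene start annotated in GENCODE v29. The distance was 135067 bases for RBBP8, 109542 for FANCC, 87615 for MSH6 and 44881 for BRCA1. That gene start is the outermost one over all annotated transcripts of a gene, so the distance does not tell which start is in use. The start used in these cells was not tested. At least 1 of the 4 E2F words lay in 8 of the 43 windows (18.6%), against 3.27% of 27305 windows of all genes and 5.08% of the 10588 windows of tested genes. The 8 were XRCC2, GEN1, FANCA, EXO1, FANCD2, TOPBP1, MSH6 and PMS2, and their log2 fold changes ran from -1.47 to 0.10 with a median of -0.97, while the other 35 had a median of -0.72. Counting the bases before the start alone, 2 of the 43 held a word, FANCA and PMS2 (4.65%, against 2.76% of all windows and 4.28% of those of tested genes), and the median log2 fold change was -0.67 with a word there and -0.77 without. CCAAT, the box bound by NF-Y, was found on either strand in 21 of the 43 (48.8%, against 35.6% of all windows and 36.1% of those of tested genes), and TTTGAA, the word of the cell cycle homology region, in 4 (9.30%, against 15.6% of all windows and 9.85% of those of tested genes). The members with CCAAT had a median log2 fold change of -0.82 and those without it -0.76. The 4 with TTTGAA were NEIL3, BRIP1, POLQ and ATM. A match of letters is a description of the window and says nothing of binding in these cells.

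Of the BRCA complexes, 0 of 5 genes passed over all genes (edgeR quasi-likelihood test, with 4 at an unadjusted p below 0.05, all lower), and the median log2 fold change was -1.16. The background for this and the other role groups is the share over all tested genes. It was 9.97% for a lower value at an unadjusted p below 0.05, and 27.9% for both knockdown libraries below both controls. BRCA2 (ENSG00000139618), a tumor suppressor whose protein acts at resected breaks, had 7.79 and 8.88 CPM in the knockdown libraries, against 29.6 and 12.5 CPM in the controls, a log2 fold change of -1.34 ± 0.40 (SE; adjusted p = 0.112). The knockdown libraries were alike and below both controls, which stood far apart from each other, and the log2 fold change was -0.59 without control replicate 1 (adjusted p = 0.593, edgeR) and -1.81 without control replicate 2 (adjusted p = 0.0163). BARD1, the obligate partner of BRCA1 in its ubiquitin ligase, had 6.95 and 9.76 CPM in the knockdown libraries, against 25.8 and 13.7 CPM in the controls (-1.24 ± 0.35, adjusted p = 0.102). BRIP1, the helicase bound by BRCA1 and also known as FANCJ, had 8.13 and 7.74 CPM in the knockdown libraries, against 21.7 and 13.7 CPM in the controls (-1.16 ± 0.29, adjusted p = 0.0837). In both genes the 2 knockdown libraries were again below the lower control, and BARD1 had -0.72 without control replicate 1. BRCA1 itself had 32.6 and 50.8 CPM in the knockdown libraries, against 81.9 and 54.4 CPM in the controls (-0.71), so knockdown replicate 2 came within a few CPM of control replicate 2. PALB2, which bridges BRCA1 and BRCA2, had 30.2 and 30.9 CPM in the knockdown libraries, against 38.3 and 29.1 CPM in the controls (-0.14), and its libraries overlapped.

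Among the 8 recombination accessory factors, 0 passed (4 at an unadjusted p below 0.05), and the median log2 fold change was -0.94. XRCC2 (ENSG00000196584, GRCh38 chromosome 7, 152644779 to 152676165, minus strand, no exon shared with another gene in GENCODE v29) had the lowest log2 fold change of the 47, -1.47 ± 0.27 (SE; adjusted p = 0.0534). It had 10.1 and 10.0 CPM in the knockdown libraries, against 34.1 and 21.7 CPM in the controls, with the knockdown libraries nearly equal and both far below the controls. RAD51AP1, which stimulates strand exchange, had 12.1 and 12.5 CPM in the knockdown libraries, against 34.0 and 25.8 CPM in the controls (-1.28 ± 0.23, adjusted p = 0.0521). RAD54L, a motor protein that remodels DNA during strand exchange, had 26.5 and 33.6 CPM in the knockdown libraries, against 73.3 and 49.98 CPM in the controls (-1.04 ± 0.24, adjusted p = 0.0711). These 3 genes did not overlap between groups. XRCC3, whose exon bases are shared to 76.7% with KLC1 on the opposite strand, had 26.6 and 11.7 CPM in the knockdown libraries, against 56.5 and 44.0 CPM in the controls (-1.40), with knockdown replicate 2 the lowest. The remaining 4 lay nearer to 0, with log2 fold changes of -0.84 for RAD54B, -0.53 for RAD51D, -0.38 for RAD51C and -0.34 for RAD51B. RAD54B was the most weakly counted of the 47, with 1.33 and 2.10 CPM in the knockdown libraries, against 3.36 and 2.79 CPM in the controls, and shares 59.1% of its exon bases with FSBP on the same strand. RAD51B overlapped between groups with 7.54 and 3.70 CPM in the knockdown libraries, against 8.07 and 6.11 CPM in the controls.

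In the Fanconi core complex 1 of 8 genes fell, FANCA, against 0.27% of all tested genes called lower. The other 7 did not pass (4 of those at an unadjusted p below 0.05), and the median log2 fold change was -0.81. FANCA lies on GRCh38 chromosome 16, 89737549 to 89816657, minus strand, and 23.6% of its exon bases are shared with ZNF276 on the opposite strand, so its count is uncertain where strand was not used. FANCG, a subunit that binds FANCA directly, had 30.1 and 34.2 CPM in the knockdown libraries, against 59.7 and 55.6 CPM in the controls (-0.84 ± 0.18, SE; adjusted p = 0.0619). FANCB, an X-linked subunit of the catalytic module, had 2.51 and 3.07 CPM in the knockdown libraries, against 8.54 and 5.40 CPM in the controls (-1.32 ± 0.37, adjusted p = 0.1002). Both kept the groups apart, FANCG with controls that differed little and FANCB at a few CPM. FANCM, the translocase that anchors the complex to DNA, had a log2 fold change of -0.84, and FANCL, the ubiquitin ligase, -0.77. FANCC, FANCE and FANCF lay closer to 0, at -0.44, -0.23 and -0.00 (-0.0041 before rounding), and the libraries of FANCE and FANCF overlapped. FANCF, a gene of a single exon, had 8.08 and 4.08 CPM in the knockdown libraries, against 6.29 and 5.88 CPM in the controls, its highest value in a knockdown library.

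The pair that the core complex ubiquitinates, FANCI and FANCD2, had log2 fold changes of -1.05 ± 0.24 (SE; adjusted p = 0.0688) and -0.97 ± 0.28 (adjusted p = 0.108), and neither passed. FANCI had 64.6 and 97.9 CPM in the knockdown libraries, against 189.9 and 148 CPM in the controls. FANCD2 had 35.1 and 53.1 CPM in the knockdown libraries, against 106 and 66.7 CPM in the controls. In both, knockdown replicate 1 was the lowest library, knockdown replicate 2 lay below control replicate 2, and control replicate 1 was the highest, without which the log2 fold change of FANCD2 was -0.60.

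**Figure D2:**
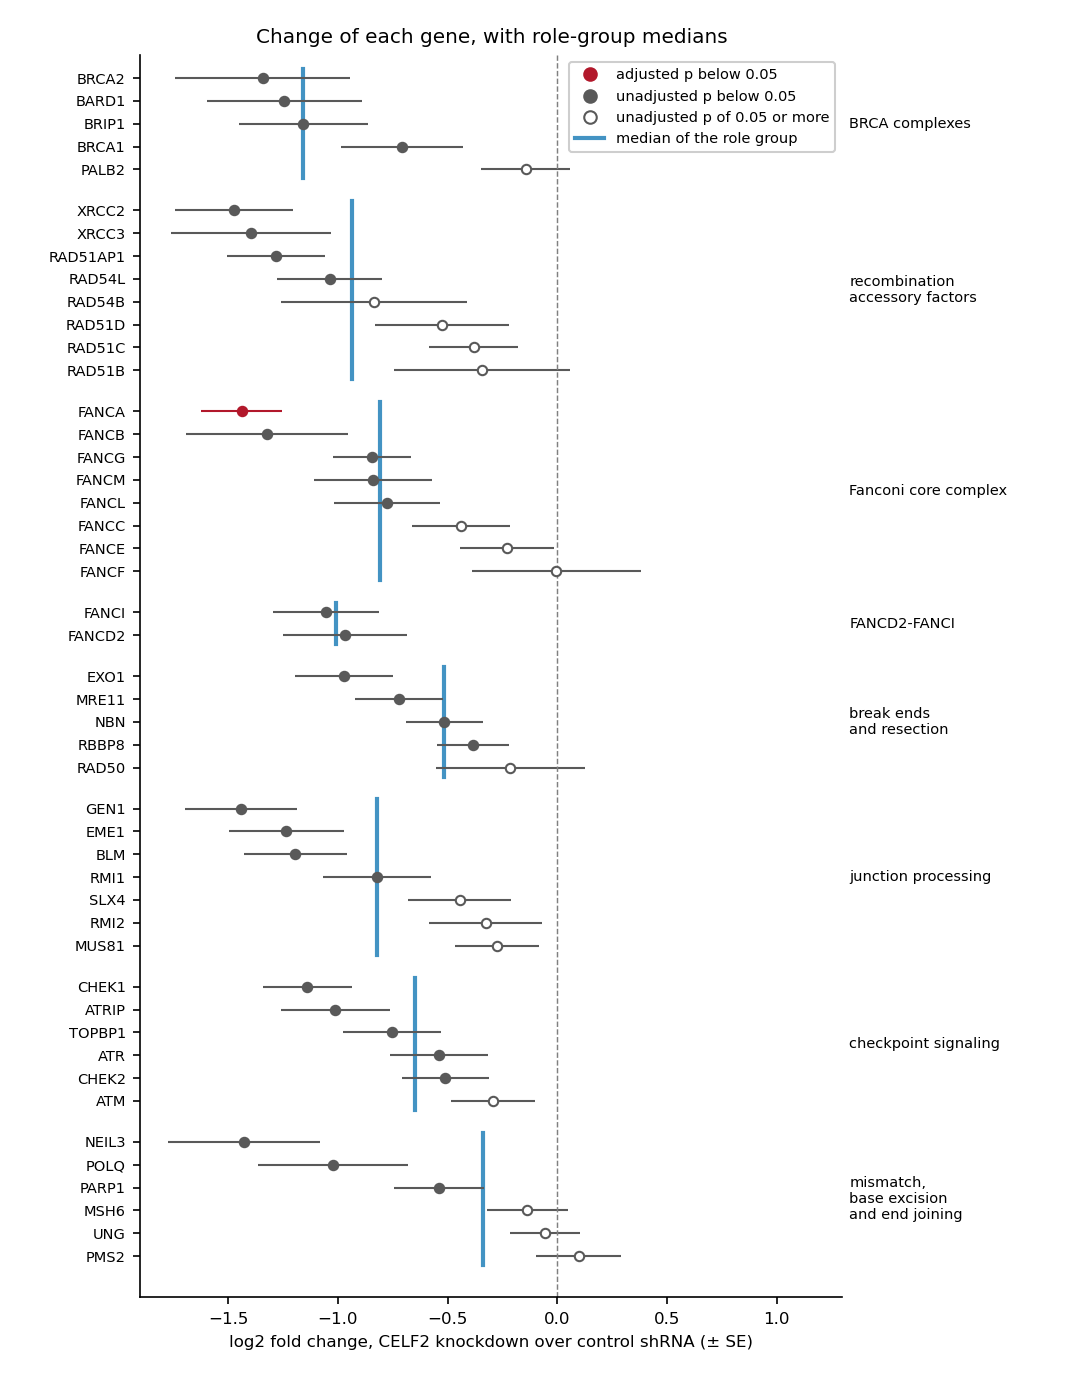
Log2 fold change of each of the 47 genes, CELF2 knockdown over control shRNA, from the edgeR fit over 4 libraries. Bars are standard errors derived from the F statistic of the test. FANCA, in red, has an adjusted p below 0.05, filled grey points have an unadjusted p below 0.05, and blue lines are the medians of the role groups, which run from -1.16 for the BRCA complexes to -0.34 for mismatch, base excision and end joining.

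At break ends and in resection, 0 of 5 genes passed (4 at an unadjusted p below 0.05), with a median log2 fold change of -0.51. EXO1, the exonuclease of long-range resection, had 25.6 and 33.7 CPM in the knockdown libraries, against 66.3 and 50.2 CPM in the controls (-0.97 ± 0.22, SE; adjusted p = 0.0699). MRE11, the nuclease that opens the ends, had 28.0 and 30.3 CPM in the knockdown libraries, against 54.6 and 41.6 CPM in the controls (-0.72 ± 0.20, adjusted p = 0.101). NBN, the subunit that recruits ATM, had 62.5 and 69.5 CPM in the knockdown libraries, against 102 and 86.0 CPM in the controls (-0.51 ± 0.18, adjusted p = 0.151). In each of these 3 the knockdown libraries were the 2 lowest. RBBP8, also called CtIP, which starts resection, had a log2 fold change of -0.39. RAD50, the structural subunit of the complex, had 4.93 and 5.93 CPM in the knockdown libraries, against 7.57 and 4.99 CPM in the controls (-0.21), with overlapping libraries. Its overlaps with other annotated genes, 1 of them on the same strand, sum to 82.2% of its exon bases, so its low count is uncertain. In that sum a base shared with several genes counts more than once. With the GC offset the median of the 5 was -0.28.

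Of the 7 genes that dissolve or cut joined DNA molecules, 0 passed, and the median log2 fold change was -0.82. An unadjusted p below 0.05 with a lower value was reached by 4, against 9.97% of all tested genes. Both knockdown libraries lay below both controls in all 7, against 27.9%. GEN1, a nuclease that cuts Holliday junctions, had 10.6 and 9.80 CPM in the knockdown libraries, against 32.9 and 22.4 CPM in the controls (-1.44 ± 0.26, SE; adjusted p = 0.0521). EME1, the partner of the MUS81 nuclease, had 7.79 and 8.54 CPM in the knockdown libraries, against 22.3 and 16.1 CPM in the controls (-1.23 ± 0.26, adjusted p = 0.0626). BLM, the helicase that dissolves double Holliday junctions with TOP3A, RMI1 and RMI2, had 15.1 and 18.7 CPM in the knockdown libraries, against 44.9 and 32.5 CPM in the controls (-1.19 ± 0.24, adjusted p = 0.0584). These 3 showed the same order, with both knockdown libraries low and control replicate 1 highest. RMI1 had a log2 fold change of -0.82, the nuclease scaffold SLX4 -0.45, RMI2 -0.33 and MUS81 -0.27. For MUS81 the values were 32.0 and 26.5 CPM in the knockdown libraries and 34.1 and 36.7 CPM in the controls, 1 of 2 members with their highest value in control replicate 2.

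Of the 6 genes of checkpoint signaling, 0 passed, and the median log2 fold change was -0.65. An unadjusted p below 0.05 with a lower value was reached by 5, against 9.97% of all tested genes. Both knockdown libraries lay below both controls in all 6, against 27.9%. CHEK1, the kinase that ATR activates to hold the cell cycle, had 21.5 and 24.0 CPM in the knockdown libraries, against 56.1 and 44.0 CPM in the controls (-1.14 ± 0.20, SE; adjusted p = 0.0521). ATRIP, the partner that brings ATR to single-stranded DNA, had 12.9 and 11.1 CPM in the knockdown libraries, against 28.0 and 20.4 CPM in the controls (-1.01 ± 0.25, adjusted p = 0.0783). Its exon bases are shared to 27.9% with TREX1 on the same strand. TOPBP1, the activator of ATR, had 50.6 and 66.4 CPM in the knockdown libraries, against 115 and 82.7 CPM in the controls (-0.75 ± 0.22, adjusted p = 0.112). The log2 fold changes of ATR, CHEK2 and ATM were -0.54, -0.51 and -0.29, and CHEK2, the kinase that ATM activates, has near-identical pseudogene copies that make its count uncertain. For ATM, the kinase of double-strand breaks, the values were 34.5 and 29.6 CPM in the knockdown libraries and 41.9 and 36.6 CPM in the controls, so the groups were apart by a narrow margin.

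The 6 genes of mismatch repair, base excision and end joining spread the widest, from -1.43 to 0.10, with a median of -0.34 and 0 passing (3 at an unadjusted p below 0.05). The median was -0.14 without knockdown replicate 1 and -0.55 without knockdown replicate 2. NEIL3, a glycosylase that also opens interstrand crosslinks, had 9.56 and 13.7 CPM in the knockdown libraries, against 41.2 and 21.4 CPM in the controls (-1.43 ± 0.35, SE; adjusted p = 0.0773). POLQ, the polymerase of microhomology-mediated end joining, had 13.4 and 19.4 CPM in the knockdown libraries, against 43.8 and 22.7 CPM in the controls (-1.02 ± 0.34, adjusted p = 0.143). PARP1, the sensor of strand breaks and per kilobase of exon the most abundant of the 47, had 259.6 and 365 CPM in the knockdown libraries, against 458 and 451 CPM in the controls (-0.54 ± 0.20, adjusted p = 0.180). In these 3 the groups did not overlap, and in POLQ the controls stood nearly as far apart as the groups. Without control replicate 1 the log2 fold changes of NEIL3 and POLQ were -0.88 and -0.48, and that of PARP1 was -0.30 without knockdown replicate 1 and -0.81 without knockdown replicate 2. MSH6, which recognizes mismatches, had 129.7 and 159.6 CPM in the knockdown libraries, against 173 and 145 CPM in the controls (-0.14). UNG, which removes uracil from DNA, had 94.4 and 105 CPM in the knockdown libraries, against 102 and 106 CPM in the controls (-0.05). PMS2, the endonuclease subunit of MutL alpha, had 44.2 and 39.6 CPM in the knockdown libraries, against 43.6 and 34.5 CPM in the controls (0.10 ± 0.19, adjusted p = 0.806). Those last 3 overlapped between groups. PMS2 has near-identical pseudogene copies, so its count is uncertain, and its sign turned with control replicate 2 left out (-0.044).

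Partners of a complex did not have the same values, and the ratio of their levels was compared by library for 8 pairs chosen after their values were seen, with no test. The ratio of EME1 to MUS81 was 0.243 and 0.322 in the knockdown libraries, against 0.652 and 0.440 in the controls. For BRCA2 to PALB2 it was 0.258 and 0.287 in the knockdown libraries, against 0.775 and 0.428 in the controls. For XRCC2 to RAD51D, subunits of 1 paralog complex, it was 1.05 and 1.51 in the knockdown libraries, against 2.57 and 2.13 in the controls. In these 3 pairs both knockdown libraries lay below both controls. The ratio of BLM to RMI2 was 1.19 and 1.75 in the knockdown libraries, against 2.72 and 2.56 in the controls, and that of BARD1 to BRCA1 was 0.213 and 0.192 in the knockdown libraries, against 0.315 and 0.252 in the controls. The ratio of ATRIP to ATR was 0.393 and 0.305 in the knockdown libraries and 0.468 and 0.497 in the controls, and that of XRCC3 to RAD51C was 0.964 and 0.385 in the knockdown libraries and 1.33 and 1.34 in the controls. FANCI to FANCD2 was the pair whose ratio overlapped between the groups, with 1.84 and 1.84 in the knockdown libraries and 1.80 and 2.21 in the controls. A ratio shows unequal values of the partners, not that either was steady.

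The other genes of these pathways were read from lists of which none overlaps the 47. Of 54 other genes of homologous recombination, the Fanconi pathway and the checkpoint, 0 passed by the edgeR quasi-likelihood test. At an unadjusted p below 0.05, 20 were lower and 0 higher, against 9.97% and 12.1% of all tested genes. The log2 fold change was below 0 in 44, against 50.3% of all tested genes, with a median of -0.38. RECQL4, a helicase of origins and repair, had 34.5 and 30.1 CPM in the knockdown libraries, against 72.2 and 63.6 CPM in the controls (-1.07, adjusted p = 0.0501). DNA2, a nuclease of resection, had a log2 fold change of -1.33, and TIPIN, a fork protection protein, -1.36. Both knockdown libraries lay below both controls in 34 of the 54, above in 4, and overlapped in 16. Over all tested genes 27.9% lay below and 27.1% above in this way. In non-homologous end joining 0 of 13 tested genes passed, with a median of -0.36. At an unadjusted p below 0.05, 3 were lower and 1 higher, against 9.97% and 12.1% of all tested genes. PAXX, an accessory factor of the Ku protein, and XRCC5, a subunit of Ku, had log2 fold changes of -0.73 and -0.70, and the polymerase POLM 0.92 (0.44 without control replicate 1). POLM had a log2 fold change of 1.61 with control replicate 2 left out. By edgeR it passed with no filter on low counts (adjusted p = 0.000205) and with the replicate number as a block (adjusted p = 0.0148). It also passed with that block and an offset for GC content (adjusted p = 0.000412). These fits called 2139, 1579 and 2927 genes over all genes, and PAXX and XRCC5 passed in each of them as lower. As reported by edgeR, the adjusted p was 0.167 for POLM, 0.0744 for PAXX and 0.0889 for XRCC5. By DESeq2 PAXX and XRCC5 passed (adjusted p = 0.0152 and 0.0137) and POLM did not (adjusted p = 0.0633). NHEJ1 had 0 or 1 count in each library and was not tested.

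In the other genes of mismatch and base excision repair 0 of 23 passed (9 lower and 1 higher at an unadjusted p below 0.05), with a median of -0.40. The background for this and the next lists was 9.97% lower and 12.1% higher over all tested genes. LIG1, the ligase of replication, had a log2 fold change of -1.36, and the sliding clamp PCNA -1.11. In translesion synthesis 0 of 12 passed, with a median of -0.34. At an unadjusted p below 0.05, 2 were lower and 0 higher, beside the background of 9.97% and 12.1%. POLH, PRIMPOL and REV3L had log2 fold changes of -0.72, -0.74 and -0.51. In nucleotide excision repair, which removes ultraviolet lesions, 0 of 17 tested genes passed (3 lower and 0 higher at an unadjusted p below 0.05), the median was -0.13, and GTF2H2 and GTF2H3, subunits of TFIIH, had log2 fold changes of -1.07 and -0.45.

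**Figure D3:**
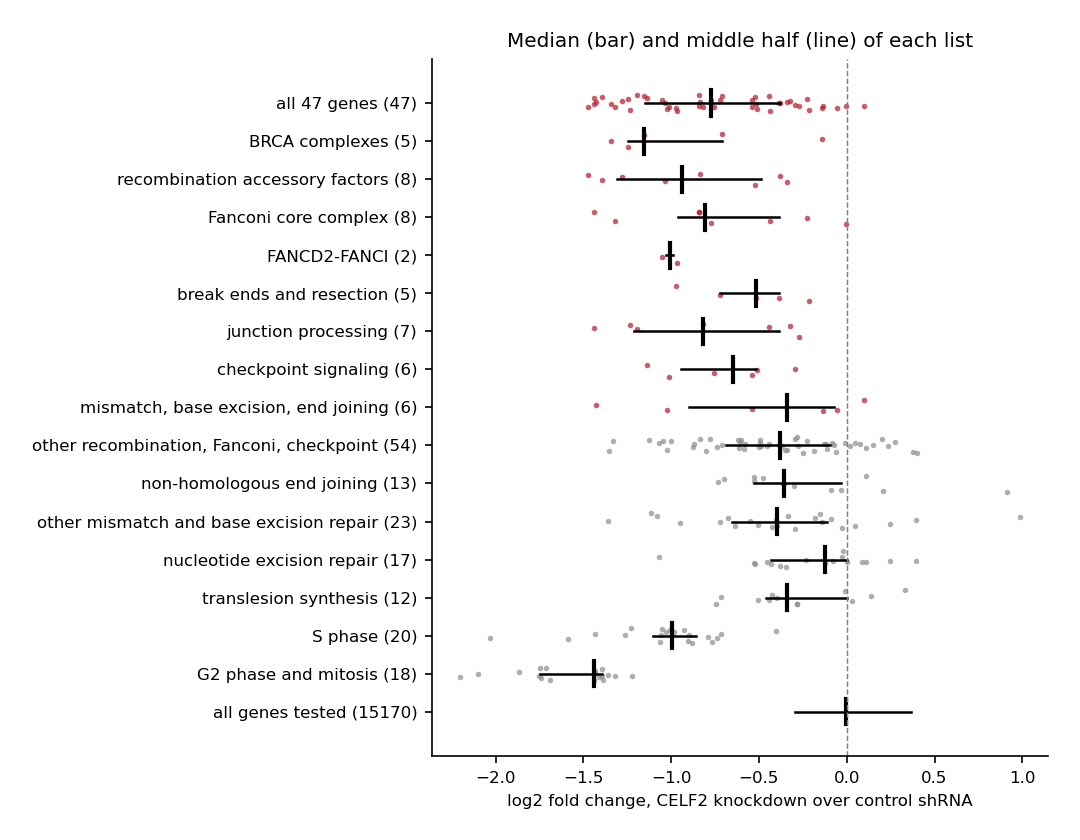
Log2 fold change, CELF2 knockdown over control shRNA, of the 47 genes and their 8 role groups (red points), of 7 lists of other repair and cell cycle genes (grey points) and of all tested genes, with the median as a bar and the interquartile range as a line. The number tested is in brackets. The 47 genes have a median of -0.77, between the S phase list at -0.996 and the lists of other repair genes at -0.40 to -0.13.

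Genes of the cell cycle were read beside them. In the S phase list 4 of 20 genes fell, against 0.27% of all tested genes called lower. They were MCM5, CDC45, RRM2 and TYMS, with log2 fold changes of -1.06, -1.44, -2.03 and -1.59. All 20 were below 0, against 50.3% of all tested genes, and the median was -0.996. In G2 phase and mitosis 2 of 18 tested genes fell (MKI67 and CDC20, -2.10 and -1.75), beside the same background of 0.27%. UBE2C had -1.44 without passing, all 18 were below 0, and the median was -1.44. By library, the median log2 CPM of the 47 genes relative to the mean of the controls was -0.90 and -0.65 in the knockdown libraries and 0.20 and -0.20 in the controls. The S phase list had -1.08 and -0.83 in the knockdown libraries and 0.15 and -0.15 in the controls, so the libraries came in the same order. The mitosis list had -1.76 and -1.20 in the knockdown libraries and 0.50 and -0.50 in the controls. Taken as a difference from the S phase list, the 47 genes stood at 0.18 and 0.18 in the knockdown libraries and at 0.05 and -0.05 in the controls. The part of cell cycle phase in the values of the 47 genes was not tested.

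**Figure D4:**
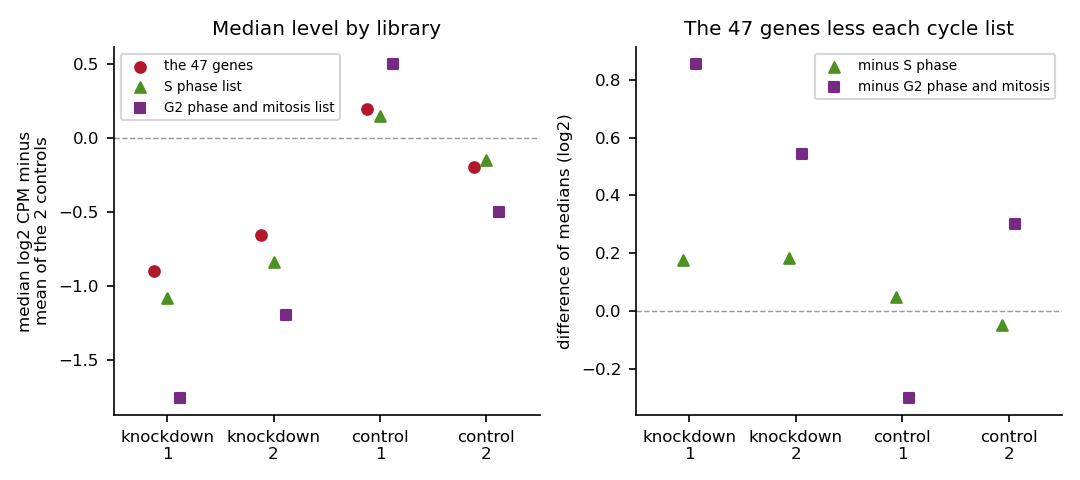
Left, median log2 CPM of the 47 genes, the S phase list and the G2 phase and mitosis list in each library, relative to the mean of the 2 controls. Right, the median of the 47 genes less that of each cycle list; against the S phase list the 4 libraries run from -0.05 to 0.18, and against the mitosis list from -0.30 to 0.86.

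Other properties of the 47 genes were set beside their log2 fold changes as descriptions. Transcript GC content, from the longest transcript of each gene in GENCODE v29, ran from 36.0% for RMI1 to 63.8% for XRCC3, and its Spearman correlation with the log2 fold change was 0.26 across the 47 genes, which share the same 4 libraries. The 30 genes under 45% GC had a median of -0.84 and the other 17 a median of -0.51. With the GC offset 5 members passed (RAD51AP1, FANCA, FANCG, GEN1 and CHEK1; 0.974% of all tested genes were called lower) and the median of the 47 was -0.61. Exon length had a correlation of -0.03, and the mean level per kilobase of exon 0.14. That level ran from 0.451 CPM per kilobase for RAD54B to 53.5 for PARP1. Exon overlaps, summed over the overlapping genes, came to over 5% of the exon bases in 16 of the 47 genes (median -0.66). Of those 16, 9 were lower at an unadjusted p below 0.05, and in 13 both knockdown libraries lay below both controls. The 20 genes with no shared exon base had a median of -0.91. Of those 20, 15 were lower at an unadjusted p below 0.05, and in 16 both knockdown libraries lay below both controls. The shares over all tested genes were 9.97% and 27.9%.

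The number of members called depended on the test, while their median stayed below 0. Lower in the knockdown at an adjusted p below 0.05 were 21 of the 47 by DESeq2 (4.05% of all tested genes), 25 by edgeR with no filter on low counts (3.07%), 4 with the size factors of DESeq2 (0.501%), 5 with library totals alone (0.725%), and 0 by limma-voom (0%; 30 members at an unadjusted p below 0.05, against 10.3% of all tested genes). With control replicate 2 left out there were 16 (1.67%), without knockdown replicate 1 there were 5 (0.927%), and without knockdown replicate 2 or control replicate 1 there were 0. Genes near 0 crossed it with the scaling: 45 members were below 0 with the size factors of DESeq2 (49.7% of all tested genes), 44 with library totals (45.1%) and 44 with the GC offset (48.3%), FANCF being above 0 in all 3, UNG with library totals and MSH6 with the GC offset. Without control replicate 1 the 5 above 0 were PALB2, FANCE, FANCF, RAD50 and PMS2. No member was called higher in any of these fits, and the median of the 47 ran from -0.95 to -0.54.

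**Figure D5:**
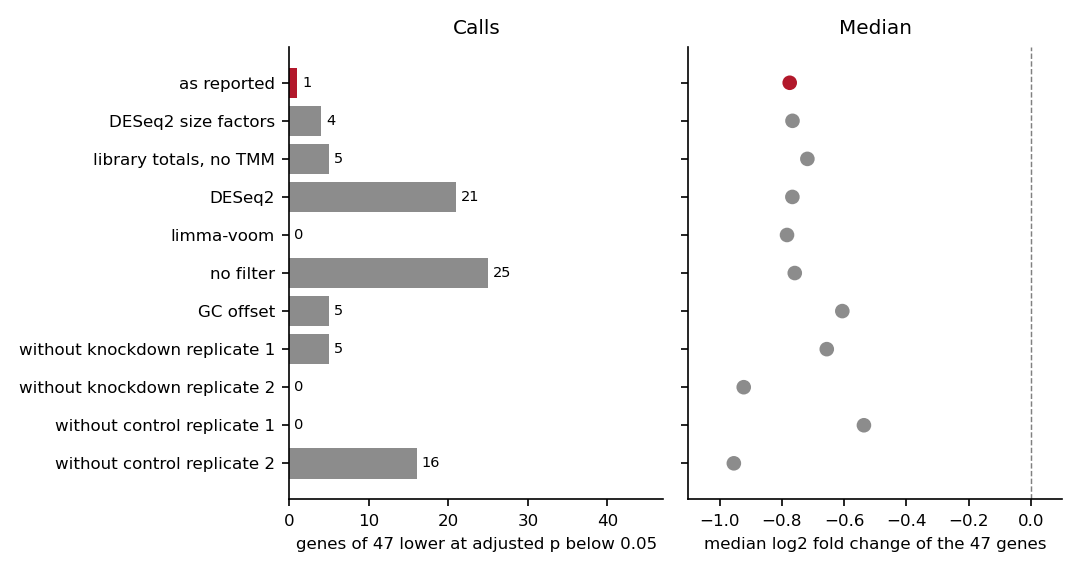
Left, number of the 47 genes called lower in the CELF2 knockdown at an adjusted p below 0.05 as reported (red) and under the 10 alternatives that have no replicate block (grey), from 0 to 25. Right, their median log2 fold change in the same fits, which stays between -0.95 and -0.54.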

How the data were processed

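PolyA RNA of SCC13 cells was sequenced in 2 CELF2 knockdown and 2 control shRNA libraries, grouped by their titles. The authors deposited raw read counts per Ensembl gene, 1 column per library; the submitters' processing notes name HISAT2, edgeR and GRCh38. The counting program, annotation release and strand setting were not given in the sources used here. Members and gene lists were chosen with earlier results of these data known.

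Counts were tested with edgeR 4.0.16 in R 4.3.3 (quasi-likelihood test, TMM, filterByExpr at a minimum count of 10, Benjamini-Hochberg adjustment over 15170 tested genes at 0.05). Each SE is the absolute log2 fold change divided by the square root of the F statistic of that test. Alternatives used DESeq2 1.42.0, limma 3.58.1 (voom), other scalings, no filter, a GC offset, the replicate block and each library left out. Replicates differed by more than sampling noise (chi-square over its degrees of freedom 48.1 for the knockdown and 54.3 for the controls). HROB and H2AX were matched by gene ID. GENCODE v29, on GRCh38, gave positions, exon overlaps and GC for 58542 of the 60617 genes, and RefSeq (GRCh38.p14) gave promoter windows. A gene was named if it passed the threshold, had 1 of the 3 smallest p-values of its list, or, among members, lay above 0 or had 1 of the 3 lowest log2 fold changes. Some genes that the rule picked are not reported here. Genes outside the rule were named after their values were seen. Between 20733 and 22041 genes had a count in each library, and 3 counts correspond to 0.108 to 0.170 CPM. These floors cover counting error only.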

Additional observations from a re-analysis of the deposited data

How the results depend on the processing

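The median of the 47 genes and of each role group stayed below 0 under every one of the 12 alternatives, while the number of calls did not hold. Against 133 genes called, 41 of them lower, and 1 member as reported, the counts were 207, 76 and 4 with DESeq2 size factors, 416, 110 and 5 with library totals, 1386, 614 and 21 by DESeq2, 0, 0 and 0 by limma-voom (3402 genes at an unadjusted p below 0.05), 2139, 796 and 25 with no filter, and 287, 147 and 5 with the GC offset. The cause of these shifts was not tested. Leaving out 1 library gave 0 to 616 genes, 0 to 270 lower and 0 to 16 members, and fits with 1 library in a group assume that it varies like the other group. Leaving out control replicate 1 moved the median the most: without it the median of the 47 was -0.54, against -0.95 without control replicate 2.

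The replicate numbers are shared by the groups, but no label says that they mark a culture or day. The deviations of same-numbered libraries correlated at 0.20 over all tested genes. For the 47 genes they went opposite ways, with a median log2 ratio of replicate 1 over replicate 2 of 0.40 in the controls and -0.16 in the knockdown. With the replicate block 1579 genes were called, 627 of them lower, and 20 members (4.13% of all tested genes were called lower), with a median of -0.76. The block with the GC offset called 2927, 1344 lower (8.9%), and 27 members.

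With 1 library left out the medians ran from -0.95 to -0.54 for the 47 genes, -1.43 to -0.59 for BRCA complexes, -1.11 to -0.72 for recombination accessory factors, -0.93 to -0.56 for the Fanconi core complex, -1.02 to -0.57 for junction processing, -0.61 to -0.15 for non-homologous end joining, -0.49 to -0.16 for translesion synthesis, -0.55 to -0.14 for mismatch, base excision and end joining, -1.09 to -0.80 for S phase and -0.18 to -0.090 for nucleotide excision repair. The median for break ends was -0.28 with the GC offset, with or without the block, and that for translesion synthesis -0.18 with the offset and the block. Nucleotide excision repair, with a median of -0.13 as reported, had -0.12 with DESeq2 size factors and by DESeq2, -0.064 with library totals, -0.13 by limma-voom, -0.087 with no filter, -0.13 with the replicate block, -0.094 with the GC offset and -0.094 with both. Of 552 values of the 46 genes picked by the naming rule, 1 turned its sign, PMS2 without control replicate 2 (-0.044 to 0.27 with 1 library left out), 174 newly passed, 293 did not pass in either fit, and, of the 84 values of the 7 genes that passed as reported, 63 passed again and 21 did not. Genes at a few CPM, such as RAD54B and FANCB, are limited by depth.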
